A study of Rattus norvegicus with 10 samples.

Results

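The insulin-like growth factor (IGF) system of the rat hippocampus was measured through 10 genes: the ligands Igf1 and Igf2, the receptors Igf1r and Igf2r, and the binding proteins Igfbp2, Igfbp3, Igfbp4, Igfbp5, Igfbp6 and Igfbp7. They were taken by gene symbol, without regard to case, from a table of 25269 loci, in which 16243 single gene names remained after loci with the same name had been summed. The 10 genes stood on 11 loci, with Igf2r on 2, and all 10 passed the filter on low values. The groups were 5 hippocampal libraries from male Sprague-Dawley rats with a traumatic brain injury (TBI) by fluid percussion, in which a pulse of fluid strikes the dura, and 5 from male Sprague-Dawley rats with sham surgery. Tissue was taken 1 week after surgery, following a learning test, and messenger RNA was sequenced after poly-A selection. The labels name replicates without saying that each was its own rat, and p-values therefore speak of library-to-library spread, which may be technical. The labels give the weight of the rats but no age.

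IGF-I and IGF-II are small secreted hormones related to insulin. Both act mainly through the tyrosine kinase receptor encoded by Igf1r, while the product of Igf2r carries IGF-II and lysosomal enzymes bearing mannose 6-phosphate into lysosomes and does not signal like a growth factor receptor. The binding proteins hold the ligands outside cells and set how much reaches the receptor. In adult brain, Igf1 is known from some interneurons, glia and vessels, and Igf2 chiefly from the choroid plexus and the leptomeninges, the epithelium and membranes that border the hippocampus.

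Levels are given as FPKM, by definition fragment counts scaled to transcript length and to the mapped fragments of the library. This allows genes to be compared within a library. Whether a further scaling between libraries was used was not given. The sum of FPKM per library was between 523239 and 629660. Read depth was not given, but at loci that stayed under 0.3 FPKM the values of 7 libraries stood at a common ratio to those of TBI 2 for 21.5% to 27.3% of loci (tolerance 0.02 on the log2 scale). These libraries would be 1.40 to 1.59 times as deep if such loci held equal fragment counts and no other scaling was used, which was not tested. The libraries TBI 1 and sham 1 showed no such ratio to TBI 2, with 2.20% and 3.99% of low loci at the commonest, nor to each other, with 4.41%. Hippocampal neurons were plain in every library, with Prox1, a granule cell factor, at 6.99 to 22.1 FPKM and Neurod6 at 43.9 to 143 FPKM.

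No member of the IGF system passed the test for a difference between injured and sham hippocampus. The difference was tested with limma on log2(FPKM + 0.5), with a Benjamini-Hochberg adjustment over all 16194 rows of mean FPKM of at least 0.5. By that test 0 of the 10 members and 0 of the 16194 rows passed (0% called), and at an unadjusted p under 0.05 there were 472 rows (2.91%), 1.41% higher and 1.51% lower after TBI, among them 1 member, Igfbp4, which was lower. For 0 of the 10 members did the groups separate without overlap, against 78 rows in all (0.482%, with 0.241% higher and 0.241% lower after TBI). The mean on the log2 scale was higher after TBI for 7 members and lower for 3, where 50.4% of all rows were higher and 49.6% lower. The median difference was 0.13 over the members and 0.0013 over all rows. Without TBI 1 and sham 1, the libraries with no common ratio to TBI 2, 3 members were higher and 7 lower, from -0.76 for Igfbp6 to 0.29 for Igfbp3, and none passed (limma's adjusted p at least 0.913). The members differed widely from each other in their spread between libraries, described by role in what follows.

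**Figure D1:**
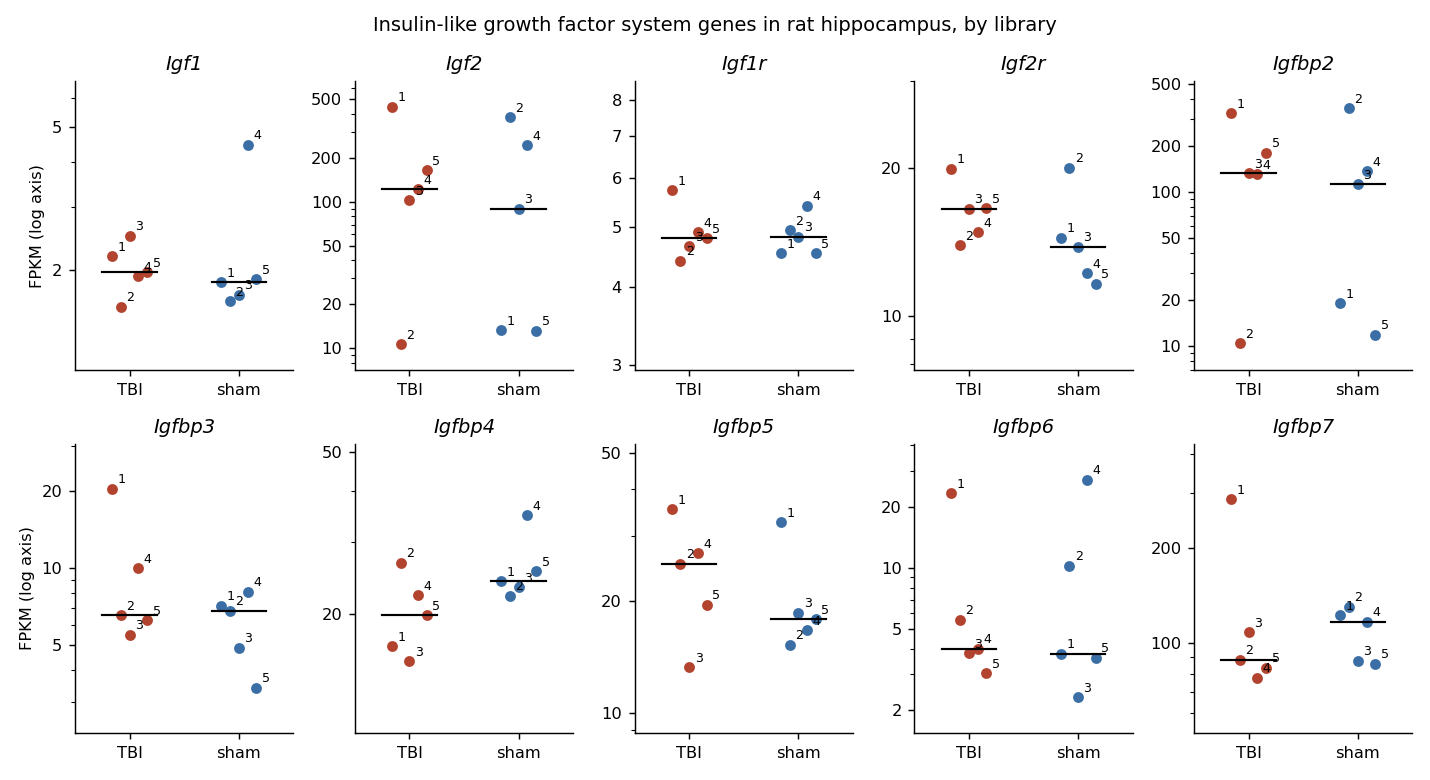
FPKM of the 10 genes (log axis) in the TBI libraries, in red on the left of each panel, and the sham libraries, in blue on the right; each point is 1 library with its number and each bar is a group median. Igf2 ran from 10.6 to 445 FPKM over the 10 libraries, while Igf1r stayed between 4.41 and 5.73 FPKM.

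Igf2 was the ligand with the most transcript in all 10 libraries and had the widest range of the members. It was at 445, 10.6, 103, 122 and 165 FPKM in TBI 1 to 5, against 13.3, 377, 89.9, 244 and 13.2 FPKM in sham 1 to 5. The group means were 169 ± 164 FPKM after TBI and 147 ± 159 FPKM in sham (SD, n = 5 each). Both groups thus held libraries with very little Igf2 and libraries with much, 41.9-fold apart at the extremes, and the groups overlapped almost fully. The log2 difference was 0.54 (SE 1.15, 95% interval -2.005 to 3.09; limma's adjusted p = 0.983, exact two-sided permutation p = 0.738). An interval this wide takes in changes of several-fold either way, so a change of Igf2 was not detectable rather than shown to be absent.

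Igfbp2, which binds IGF-II more tightly than IGF-I and carries an integrin-binding site, had almost the same profile as Igf2. It was at 326, 10.5, 133, 129.985 and 180.04 FPKM in TBI 1 to 5, against 18.96, 350.5, 112, 137 and 11.9 FPKM in sham 1 to 5. The same 3 libraries, TBI 2, sham 1 and sham 5, were lowest in both genes. Group means were 156 ± 114 FPKM after TBI and 126 ± 137 FPKM in sham (SD, n = 5 each). The log2 difference of Igfbp2 was 0.62 (SE 1.07, 95% interval -1.74 to 2.98; limma's adjusted p = 0.983, exact permutation p = 0.690). Single libraries moved it widely: it was 0.20 without TBI 1, 1.43 without TBI 2, 0.18 without sham 1, 1.22 without sham 2 and 0.013 without sham 5. Igf2 moved with them, between -0.040 without sham 5 and 1.34 without TBI 2. Within a library the ratio of Igf2 to Igfbp2 stayed between 0.773 and 1.37 after TBI and between 0.702 and 1.78 in sham, although each gene alone varied over 30-fold. The highest ratio was that of sham 4.

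The level of both genes followed the markers of the tissues next to the hippocampus. Transthyretin (Ttr), the chief secreted protein of the choroid plexus, ran from 9079 to 32233 FPKM in TBI 1, TBI 3, TBI 4, TBI 5, sham 2 and sham 3. In the other 4 libraries it was at 34.5 to 421 FPKM. Sham 4 was among these, with Ttr at 56.2 FPKM, and yet had 244 FPKM of Igf2 and 137 FPKM of Igfbp2.

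Sham 4 was the library with the highest sum of meningeal and fibroblast markers. Of the 12 markers on that list 11 matched a row, and their sum was at 181, 37.2, 40.0, 51.5 and 36.8 FPKM in TBI 1 to 5, against 47.2, 127, 28.9, 207 and 28.9 FPKM in sham 1 to 5. Col1a2 was listed at 0 in every library and Ogn reached no more than 0.083 FPKM. Of the 12 choroid plexus markers 11 matched as well, with sums of 92.0 to 33119 FPKM after TBI and 53.7 to 31974 FPKM in sham, and none was under 0.5 FPKM in every library. The median sum was 12140 FPKM after TBI and 451 FPKM in sham. All 10 choroid plexus markers tested had higher log2 means after TBI, where 50.4% of all rows did. Of these markers 0 reached an unadjusted p under 0.05 by limma, against 2.91% of all rows. The 3 libraries that were low in both kinds of marker, TBI 2, sham 1 and sham 5, held 10.6 to 13.3 FPKM of Igf2 and 10.5 to 18.96 FPKM of Igfbp2. The other 7 libraries held 89.9 to 445 FPKM of Igf2 and 112 to 350.5 FPKM of Igfbp2, with no overlap. In tissue pieces, fewer cells of a type and less RNA per cell cannot be told apart.

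**Figure D2:**
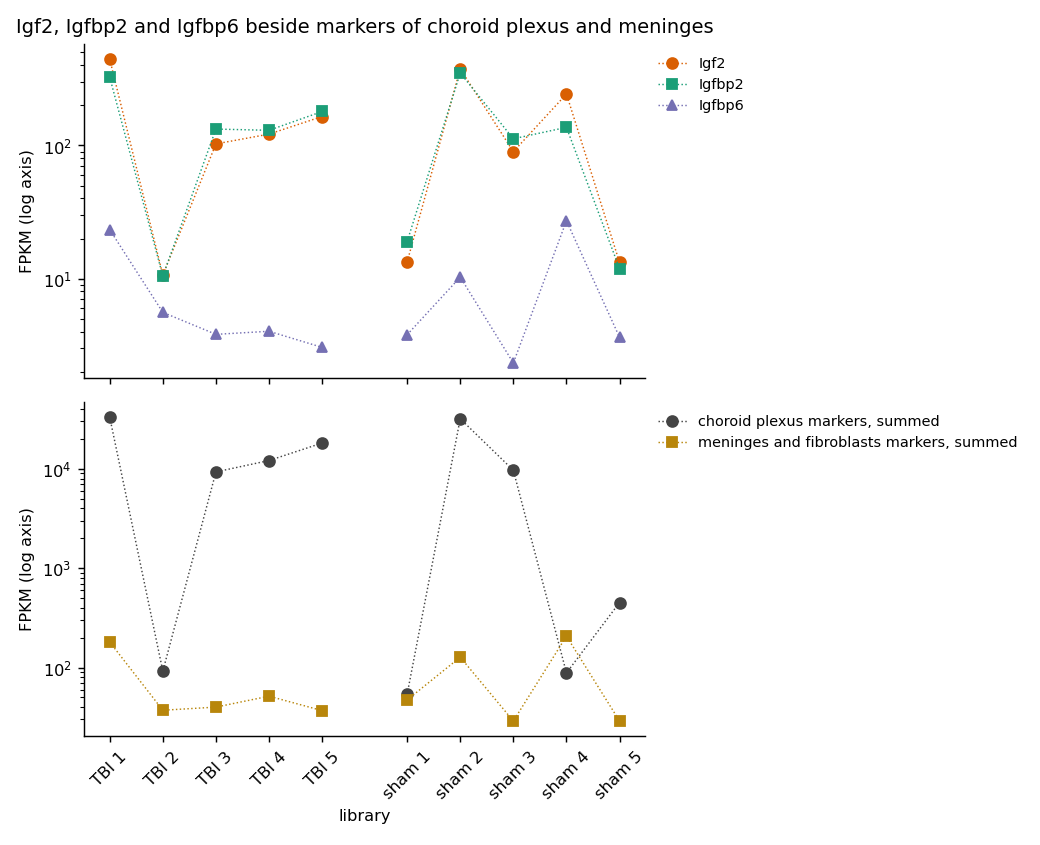
Top, FPKM of Igf2, Igfbp2 and Igfbp6 by library; bottom, the summed FPKM of the matched choroid plexus markers and of the matched meningeal and fibroblast markers (log axes, TBI libraries on the left, sham libraries on the right, dotted lines only guide the eye). Igf2 and Igfbp2 were at 10.5 to 18.96 FPKM in TBI 2, sham 1 and sham 5, and Igfbp6 was highest in TBI 1, sham 2 and sham 4, the libraries with the largest meningeal sums.

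With a score of each marker list as a covariate, the spread of Igf2 and Igfbp2 shrank. The score of a list was the mean of its centred log2 values in a library, and neither list holds a member. The residual SD of Igf2 on the log2 scale was 2.11 without covariates, 1.447 with the choroid plexus score, 1.51 with the meningeal score and 0.69 with both. That of Igfbp2 was 1.96 without covariates, 1.14 with the choroid plexus score, 1.61 with the meningeal score and 0.70 with both. With both scores the residual SD was thus 0.329 of its size for Igf2 and 0.360 for Igfbp2, against a median of 0.962 over all rows tested. The difference between TBI and sham then had the opposite sign, at -0.25 (SE 0.40) for Igf2 and -0.31 (SE 0.40) for Igfbp2, and limma's adjusted p was 0.991 for both. The choroid plexus markers leaned higher after TBI, so this covariate is partly aligned with the groups in every fit that uses it.

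Promoter sequences are shown for Igf2 and Igfbp2, which moved together, and for Igfbp4, which did not move with them. They come from RefSeq (GRCr8 build) and cover 250 bases before and 50 after an annotated start, 5′ to 3′. RefSeq gives Igf2 2 starts. Capitals mark the GC box GGGCGG, or CCGCCC where it lies on the other strand, and the TATA box TATAAA.
Igf2, chr1:207253931-207254230 (minus strand): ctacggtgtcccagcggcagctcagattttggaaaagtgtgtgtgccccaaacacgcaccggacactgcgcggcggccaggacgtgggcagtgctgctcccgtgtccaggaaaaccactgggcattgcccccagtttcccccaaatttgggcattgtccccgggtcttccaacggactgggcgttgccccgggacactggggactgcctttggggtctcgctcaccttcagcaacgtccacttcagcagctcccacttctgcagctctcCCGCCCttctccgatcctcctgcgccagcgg
Igf2, chr1:207250426-207250725 (minus strand): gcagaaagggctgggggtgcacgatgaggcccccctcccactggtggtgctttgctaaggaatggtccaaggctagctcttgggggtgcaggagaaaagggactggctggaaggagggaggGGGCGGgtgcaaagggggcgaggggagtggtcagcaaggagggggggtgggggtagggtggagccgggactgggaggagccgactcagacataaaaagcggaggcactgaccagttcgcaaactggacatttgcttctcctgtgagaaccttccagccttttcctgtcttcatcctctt
Igfbp2, chr9:81864561-81864860 (plus strand): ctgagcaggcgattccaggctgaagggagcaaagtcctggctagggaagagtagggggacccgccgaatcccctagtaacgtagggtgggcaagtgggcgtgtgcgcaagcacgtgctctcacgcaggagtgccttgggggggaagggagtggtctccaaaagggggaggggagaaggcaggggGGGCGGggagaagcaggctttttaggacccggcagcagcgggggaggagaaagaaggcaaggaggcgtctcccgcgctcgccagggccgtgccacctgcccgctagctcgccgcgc
Igfbp4, chr10:84491221-84491520 (plus strand): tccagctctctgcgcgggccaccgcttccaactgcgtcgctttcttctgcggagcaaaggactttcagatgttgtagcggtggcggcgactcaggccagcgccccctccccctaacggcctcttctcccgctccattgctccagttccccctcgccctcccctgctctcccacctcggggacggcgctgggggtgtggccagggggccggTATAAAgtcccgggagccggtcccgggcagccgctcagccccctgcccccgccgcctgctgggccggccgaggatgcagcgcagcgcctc
The GC box was found once in each Igf2 promoter and once in that of Igfbp2, on either strand, and it is in 33.1% of all 33469 promoter windows. The promoter of Igfbp4 held no GC box but a TATA box 40 bases before the start, a motif found on either strand in 14.2% of windows. The GC box did not sort the members by their profiles: it was also in the promoters of Igfbp7 (4 matches), Igf2r (2) and Igf1r (1), and not in those of Igf1, Igfbp3, Igfbp5 and Igfbp6. Igfbp2 and Igfbp5 are neighbouring genes on chromosome 9 in that assembly, but their levels were not alike: the ratio of Igfbp2 to Igfbp5 ran from 0.414 to 10.03 after TBI and from 0.582 to 23.0 in sham.

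Igf1, the ligand through which growth hormone acts in the body, was the lowest of the 10 genes in median level. It was at 2.19, 1.59, 2.49, 1.93 and 1.98 FPKM in TBI 1 to 5, against 1.86, 1.65, 1.71, 4.46 and 1.89 FPKM in sham 1 to 5. A single library, sham 4, stood 1.79-fold above the next highest, and the other 9 lay between 1.59 and 2.49 FPKM. The log2 difference was -0.08 (SE 0.23, 95% interval -0.58 to 0.42; limma's adjusted p = 0.986, exact permutation p = 0.905), and without sham 4 it was 0.15. Igf2 exceeded Igf1 in every library, also in those with the least choroid plexus and meningeal transcript.

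The receptor Igf1r was the steadiest member. It was at 5.73, 4.41, 4.65, 4.91 and 4.80 FPKM in TBI 1 to 5, against 4.53, 4.94, 4.82, 5.41 and 4.54 FPKM in sham 1 to 5. The log2 difference was 0.011 (SE 0.092, 95% interval -0.19 to 0.22; limma's adjusted p = 0.998, exact permutation p = 0.889). Small as it was, its range still followed the meningeal markers: the 3 libraries with sums above 100 FPKM had 4.94 to 5.73 FPKM of Igf1r and the other 7 had 4.41 to 4.91 FPKM. Its residual SD was 0.11, and 0.061 with the meningeal score as a covariate.

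Igf2r, the receptor that takes IGF-II and lysosomal enzymes to lysosomes, was at 19.9, 13.9, 16.5, 14.8 and 16.5 FPKM in TBI 1 to 5, against 14.4, 20.03, 13.8, 12.2 and 11.6 FPKM in sham 1 to 5. TBI 1 and sham 2, the libraries with the most Ttr, were highest. Group means were 16.3 ± 2.29 FPKM after TBI and 14.4 ± 3.33 FPKM in sham (SD, n = 5 each), and 4 of 5 TBI libraries exceeded the mean log2 value of sham. The difference of 0.19 (SE 0.15, 95% interval -0.13 to 0.51; limma's adjusted p = 0.983, exact permutation p = 0.262) was 0.078 with both marker scores as covariates. It was 0.12 without TBI 1, 0.31 without sham 2 and 0.12 without sham 5, and limma's adjusted p was at least 0.818 in every alternative. Nearly all of the value came from the locus XLOC_001582, while XLOC_000130 gave 0.66 to 1.18 FPKM after TBI and 0.035 to 0.87 FPKM in sham.

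Among the binding proteins, Igfbp4, which mostly restrains IGF action until the protease pregnancy-associated plasma protein-A cleaves it, had the smallest p of the members. It was at 16.7, 26.7, 15.3, 22.2 and 19.9 FPKM in TBI 1 to 5, against 24.1, 22.2, 23.2, 34.9 and 25.4 FPKM in sham 1 to 5. In 3 of 5 TBI libraries it lay below every sham library, but TBI 2 was above all sham libraries except sham 4. Group means were 20.2 ± 4.56 FPKM after TBI and 25.97 ± 5.14 FPKM in sham (SD, n = 5 each). The log2 difference was -0.37 (SE 0.16, 95% interval -0.73 to -0.00084), with an unadjusted p of 0.0496 and an adjusted p of 0.983 by limma, and an exact permutation p of 0.0952.

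The 3 TBI libraries lowest in Igfbp4 were TBI 1, TBI 3 and TBI 5, all with much Ttr, and TBI 2, the injured library with little Ttr, was highest. With the choroid plexus score as a covariate the difference of Igfbp4 was -0.22 (unadjusted p = 0.159 by limma, adjusted p = 0.9999). Without sham 4 it was -0.26 and without TBI 3 it was -0.28. The unadjusted p of Igfbp4 by limma lay between 0.0119 and 0.217 over the 24 alternatives tried, and the difference was negative in all of them.

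Igfbp3, the main IGF carrier of blood plasma, was at 20.4, 6.53, 5.49, 9.98 and 6.24 FPKM in TBI 1 to 5, against 7.12, 6.80, 4.88, 8.09 and 3.40 FPKM in sham 1 to 5. TBI 1 and TBI 4 lay above every sham library and the other 3 injured libraries lay among them. The log2 difference was 0.53 (SE 0.34, 95% interval -0.23 to 1.28; limma's adjusted p = 0.983, exact permutation p = 0.230), and it was 0.23 without TBI 1. With the meningeal score as a covariate it was 0.61 (unadjusted p = 0.0178, adjusted p = 0.818 by limma) and with both scores 0.58 (unadjusted p = 0.0411, adjusted p = 0.991 by limma). The meningeal score left 0.624 of the residual SD of Igfbp3. TBI 1 held 2.04 times as much Igfbp3 as any other library. It also had the highest sum of mural cell markers after sham 4, at 339 FPKM, where the other TBI libraries had 94.8 to 103 FPKM and the sham libraries 92.5 to 345 FPKM. Sham 4, with the highest sum, held 8.09 FPKM of Igfbp3. The part of mural or meningeal cells in the Igfbp3 value of TBI 1 was not tested.

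Igfbp5, a binding protein with a strong affinity for matrix and bone mineral, was at 35.4, 25.2, 13.2, 26.9 and 19.6 FPKM in TBI 1 to 5, against 32.6, 15.3, 18.6, 16.7 and 17.8 FPKM in sham 1 to 5. TBI 1 and sham 1 were the highest of their groups, and 4 of 5 TBI libraries exceeded the mean log2 value of sham. The difference was 0.23 (SE 0.26, 95% interval -0.35 to 0.81; limma's adjusted p = 0.983, exact permutation p = 0.460), and it was 0.076 without TBI 1, 0.42 without TBI 3, 0.41 without sham 1 and 0.15 without sham 2. Igfbp5 was the member least tied to the neighbouring tissues, with a residual SD that was 1.11 times as large with both scores as without.

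Igfbp6, which strongly prefers IGF-II, was at 23.3, 5.57, 3.81, 4.02 and 3.04 FPKM in TBI 1 to 5, against 3.78, 10.3, 2.32, 27.2 and 3.62 FPKM in sham 1 to 5. It was high in TBI 1, sham 2 and sham 4 alone, at 10.3 to 27.2 FPKM against 2.32 to 5.57 FPKM in the other 7 libraries, and these 3 were the libraries with the largest meningeal sums. The sum of the 9 mural cell markers, which include genes of contractile cells of vessels, set the same 3 apart. It was at 339 FPKM in TBI 1, 213 FPKM in sham 2 and 345 FPKM in sham 4 against 92.5 to 113 FPKM in the other 7. The step was wide for Acta2, at 41.5 to 81.0 FPKM against at most 13.5 FPKM. For Abcc9 it was narrow, at 3.22 to 4.03 FPKM against at most 3.16 FPKM. Kcnj8 did not set the 3 apart, at 2.03 to 3.23 FPKM against 1.61 to 2.91 FPKM, while all other markers of the list did. The part of either kind of cell in the Igfbp6 value was not tested. The log2 difference was -0.11 (SE 0.67, 95% interval -1.60 to 1.37; limma's adjusted p = 0.996, exact permutation p = 0.889). The residual SD of Igfbp6 was 1.23 without covariates, 1.31 with the choroid plexus score and 0.40 with the meningeal score. For Igfbp2 the meningeal score alone left 0.823 of the residual SD, a ratio that 18.5% of all rows tested stood at or below, and the choroid plexus score left 0.584.

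Igfbp7, a vascular relative that binds IGFs weakly, was the most even of the abundant members. It was at 287, 88.6, 108, 77.7 and 83.4 FPKM in TBI 1 to 5, against 122, 130.4, 87.8, 117 and 85.9 FPKM in sham 1 to 5. TBI 1 held 2.20 times as much as the next library, while TBI 4 and TBI 5 lay below every sham library. The log2 difference of 0.068 (SE 0.32, 95% interval -0.64 to 0.78; limma's adjusted p = 0.993, exact permutation p = 0.952) was -0.27 without TBI 1. The sum of the 9 matched endothelial markers was 130 FPKM in TBI 1 and 96.8 to 106 FPKM in the other TBI libraries, against 111 to 168 FPKM in sham. The mural sum of TBI 1 was 339 FPKM, as given above, and its meningeal sum 181 FPKM. Sham 4 had larger sums, 345 FPKM mural and 207 FPKM meningeal, with 117 FPKM of Igfbp7. The meningeal score as a covariate left 0.747 of the residual SD of Igfbp7. The part of these cells in the Igfbp7 value of TBI 1 was not tested.

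**Figure D3:**
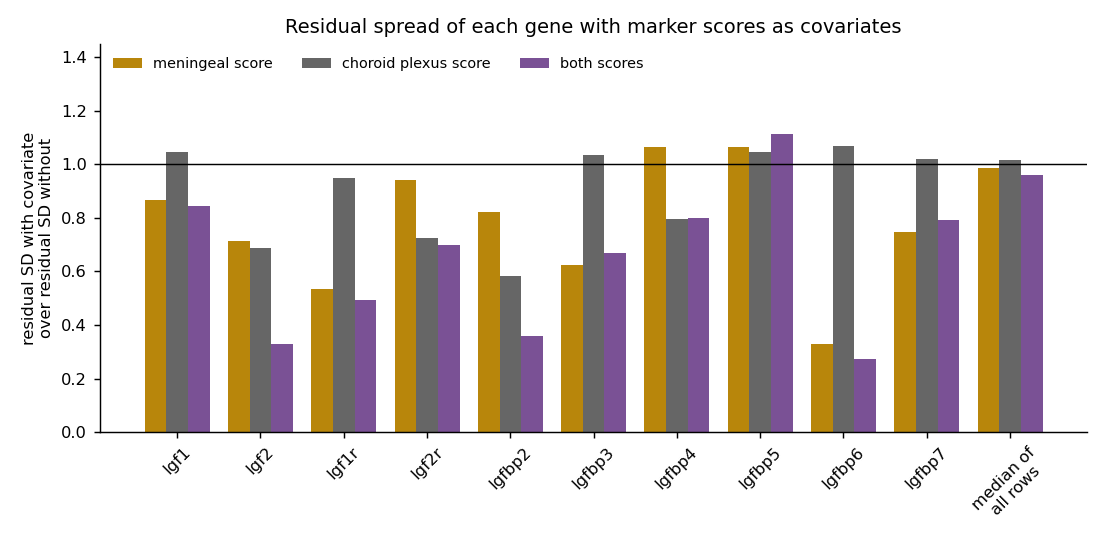
Residual SD of each gene on the log2(FPKM + 0.5) scale with a marker score as covariate, divided by its residual SD without, with the median over all tested rows at the right; the line at 1 means no change. With both scores the ratio was 0.329 for Igf2, 0.360 for Igfbp2 and 0.272 for Igfbp6, and 1.11 for Igfbp5.

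By median over the 10 libraries, Igfbp2 (131 FPKM), Igf2 (112 FPKM) and Igfbp7 (98.4 FPKM) led the family. These neighbours did not differ beyond their spread: Igfbp2 exceeded Igf2 in 5 of 10 libraries and Igf2 exceeded Igfbp7 in 6. The order turned in TBI 2, sham 1 and sham 5, where Igf2 (10.6 to 13.3 FPKM) and Igfbp2 (10.5 to 18.96 FPKM) lay below Igfbp4 (24.1 to 26.7 FPKM). Igfbp7 was above Igfbp4 (22.7 FPKM) in all 10 libraries, with no overlap of their ranges. Igfbp4, Igfbp5 (19.1 FPKM) and Igf2r (14.6 FPKM) followed, each with ranges overlapping the next. Igfbp3 (6.66 FPKM), Igf1r (4.81 FPKM) and Igfbp6 (3.91 FPKM) formed the lower part of the order, again overlapping, and Igfbp6 exceeded Igf1 (1.91 FPKM) in all 10 libraries.

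The make-up of the binding proteins varied with the level of Igfbp2. The 6 transcripts summed to 708, 163, 279, 271 and 312 FPKM in TBI 1 to 5, against 209, 535, 249, 341 and 148 FPKM in sham 1 to 5. Igfbp2 made up 46.0%, 6.41%, 47.6%, 48.0% and 57.7% of the sum in TBI 1 to 5, against 9.08%, 65.5%, 45.1%, 40.2% and 8.02% in sham 1 to 5. Where Igfbp2 was scarce, Igfbp7 had the largest share, at 54.3% in TBI 2, 58.6% in sham 1 and 58.0% in sham 5. A share rises when another part of the sum falls. The level of Igfbp7 in these libraries was 85.9 to 122 FPKM, within the 77.7 to 287 FPKM of the other 7.

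**Figure D4:**
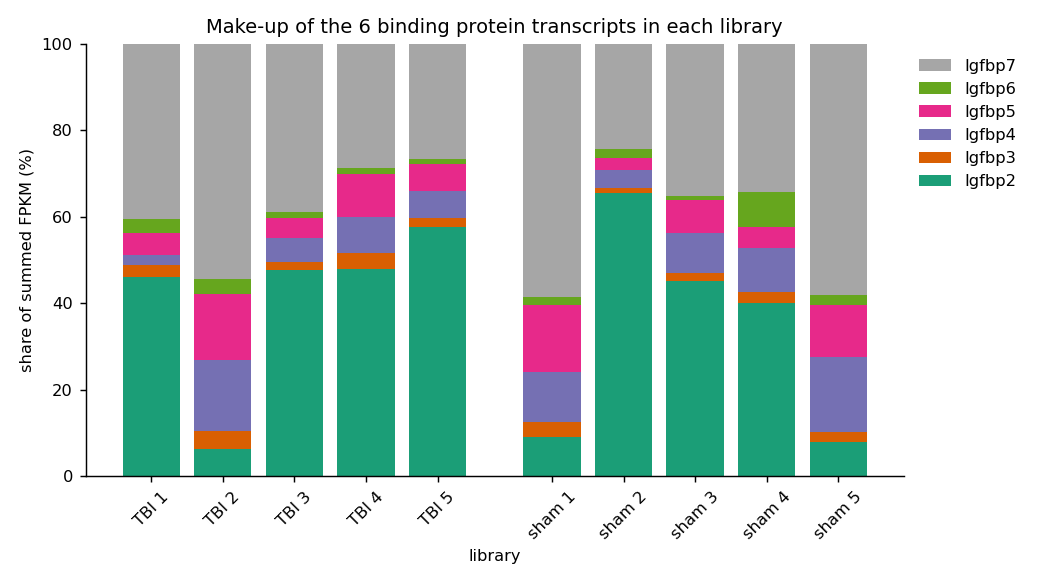
Share of each binding protein in the summed FPKM of Igfbp2 to Igfbp7, 1 bar per library, TBI libraries on the left and sham libraries on the right. Igfbp2 made up 6.41% to 9.08% in TBI 2, sham 1 and sham 5 and 40.2% to 65.5% in the other 7 libraries.

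For each member, the genes most alike were those with the highest Pearson correlation on the log2 scale over the 10 libraries, among 10522 single-name rows of mean FPKM of at least 1. The libraries share the split in neighbouring tissue described above, and for some members 1 library stands apart. How far either shaped a coefficient was not tested. The genes were picked as the highest of 10522 rows over only 10 libraries, a choice that by itself favours high coefficients. Igf2 and Igfbp2 had the same 3 genes: Slc13a4, a sulfate transporter (r = 0.993 and 0.987), Bmp7, a bone morphogenetic protein (0.990 and 0.965), and Mmp14, a membrane-bound matrix protease (0.987 and 0.967). Slc13a4 ran from 2.79 to 92.8 FPKM after TBI and from 2.995 to 69.7 FPKM in sham, and ranked the 10 libraries exactly as Igf2 did.

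Igfbp6 was most like 3 genes of contractile cells, the smoothelin gene Smtn (0.986), the calponin gene Cnn1 (0.978) and the desmin gene Des (0.976). Their rank (Spearman) coefficients with Igfbp6 were 0.782, 0.915 and 0.770 in the same order. Igf2r was most like Ctsd, which encodes the lysosomal protease cathepsin D (0.978), Ergic3 (0.970) and Psap, the precursor of the saposins of lysosomes (0.965). Ctsd was at 146 to 281 FPKM after TBI and 125 to 257 FPKM in sham. Igf1r was most like Rbms1 (0.979), Chsy1, a chondroitin sulfate synthase (0.974), and Mpzl2 (0.973).

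The remaining members had other genes beside them. Igf1 was most like Fcn1 (0.919), Akr1c19 (0.918) and A3galt2 (0.895), and Igfbp4 like Zfp597 (0.941), Lgi2 (0.927) and Prph (0.926). By rank (Spearman) the coefficients of Igf1 were 0.661, 0.927 and 0.745 in the same order. Igfbp3 was most like Gfpt2 (0.972), Hey2, a Notch target of vessels (0.946), and Stx3 (0.942), and Igfbp5 like Fyttd1 (0.962), Snrk (0.956) and Bcap29 (0.955). Igfbp7 was most like Fam57b (0.967), Zfp36l1 (0.956) and Serpina1 (0.951). Serpina1 ran from 0.452 FPKM to the 9.03 FPKM of TBI 1 after TBI, and from 0.425 to 0.935 FPKM in sham.

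Among genes that modify IGF action, none passed the test. Of 15 listed genes 12 matched and 7 were tested, 0 passed in either direction by limma and 0 reached an unadjusted p under 0.05, with 3 higher and 4 lower means after TBI and a median difference of -0.0098 beside 0.0013 over all rows. Of all rows 2.91% reached that unadjusted p, and 50.4% were higher and 49.6% lower. Stc1, which encodes a stanniocalcin that blocks the protease acting on Igfbp4, was at 2.47 ± 0.521 FPKM after TBI and 1.90 ± 0.285 FPKM in sham (SD, n = 5 each). The secreted protease Htra1, which cleaves binding proteins, was at 60.5 ± 6.16 FPKM after TBI and 68.8 ± 9.44 FPKM in sham. Igfbpl1, a relative of Igfbp7, was at 6.004 ± 4.60 FPKM after TBI and 2.72 ± 2.05 FPKM in sham. Limma's adjusted p was 0.983 for each of the 3. Igfbp1, Igfals, Pappa and Igf2bp1 were under 0.5 FPKM in every library.

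The last list held genes of insulin and IGF signalling, namely the receptor genes Insr and Insrr and genes that act downstream of the receptors. Of 30 listed genes 27 matched and 26 were tested, and 0 passed in either direction by limma, 0 also at an unadjusted p under 0.05. The mean was higher after TBI for 3 and lower for 23, with a median difference of -0.079 beside 0.0013 over all rows. Of all rows 2.91% reached an unadjusted p under 0.05 by limma, and 50.4% were higher and 49.6% lower. The kinase gene Akt1 was at 67.0 ± 5.67 FPKM after TBI and 73.1 ± 4.61 FPKM in sham (SD, n = 5 each), Rheb, which activates the mTOR kinase, at 83.8 ± 7.18 FPKM after TBI and 92.2 ± 10.6 FPKM in sham, and the catalytic subunit gene Pik3ca at 6.86 ± 0.667 FPKM after TBI and 7.48 ± 0.596 FPKM in sham. Without TBI 1 the split was 9 higher and 17 lower and the median -0.015. TBI 1 also had the lowest sum of the 7 excitatory neuron markers, at 1396 FPKM against 2098 to 3083 FPKM in the other TBI libraries and 2152 to 3375 FPKM in sham, and the part of this in the lean of the list was not tested.

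**Figure D5:**
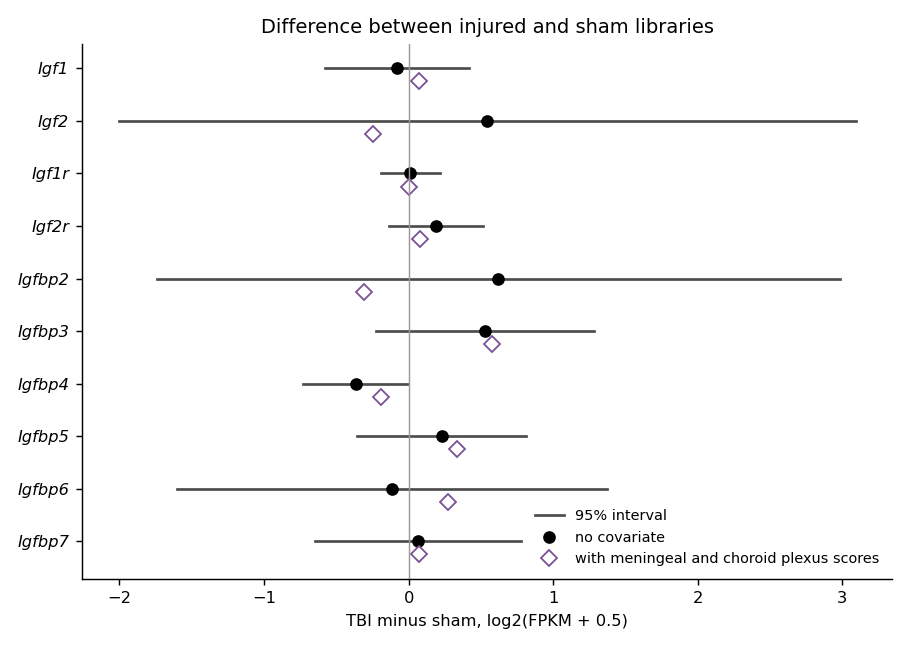
Difference between TBI and sham libraries for each gene on the log2(FPKM + 0.5) scale (filled points, with 95% intervals from limma, n = 5 per group) and the same difference with the meningeal and choroid plexus scores as covariates (open diamonds, intervals not drawn). The intervals of Igf2 and Igfbp2 span more than 4 log2 units, and with both scores the differences of Igf1, Igf2, Igfbp2 and Igfbp6 change sign.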

How the data were processed

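The authors deposited FPKM values for 25269 loci in 10 libraries, 1 column each. Cufflinks, Cuffdiff, TopHat, TopHat2, Bowtie and Bowtie2 are named with the build rn5 per the submitters' processing notes, without roles or versions. Annotation, filters, strand handling and scaling were not given in the sources used here; upper quartiles were 13.1 to 13.5 FPKM in all libraries. A status other than OK stood at 81 loci, none of a member.

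Loci sharing a symbol were summed, and the 7177 loci without a name were kept apart. Rows of mean FPKM of at least 0.5 were fitted as log2(FPKM + 0.5) with limma 3.58.1 (R 4.3.3, mean trend, two-sided, threshold 0.05 after Benjamini-Hochberg adjustment), a scale that understates changes of low genes. Permutation tests were exact and two-sided over all assignments of 5 libraries, whose smallest possible p is 0.00794. Values were not whole reads, so no count test was run, and precision comes from the spread between libraries. The procedure was tested on simulated data. Members and lists were chosen with earlier results of these data known. All 10 members are named, with the 3 genes of smallest p per pathway list and the 3 most alike genes per member. Alternatives covered the pseudocount, filter, scaling, loci, variance trend, replicate block, marker scores as covariates and omitted libraries; 2 omissions were chosen after seeing the data.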

Additional observations from a re-analysis of the deposited data

Results flagged for a closer look

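Within the groups of 5, 5 values stood apart from the rest of their group, measured as the gap to the nearest library over the range of the group on the log2(FPKM + 0.5) scale (critical value 0.710). Over the 20 groups of 5 libraries that the 10 genes give, chance flags about 1 in 20, and the genes share libraries. Igf1 in sham 4 had a gap of 0.872 of the range, at 4.46 FPKM where the other sham libraries had 1.65 to 1.89 FPKM. Igfbp2 in TBI 2 had a gap of 0.730, at 10.5 FPKM, the injured library with the least Ttr. Igfbp5 in sham 1 had a gap of 0.739, at 32.6 FPKM. In TBI 1, Igfbp6 had a gap of 0.717 and Igfbp7 of 0.746, at 23.3 and 287 FPKM. TBI 1 and sham 1 are the libraries with no common ratio to TBI 2 at low loci. The part of this in their values was not tested.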

How the results depend on the processing

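None of the 10 members passed in any of the 24 alternatives, where limma's adjusted p was at least 0.818. The count of rows called was 0 in all but 2: it was 2 without sham 4, and 2 with sham 2, sham 4 and TBI 1 left out together (0 to 2 over single omissions). The pathway lists had 0 calls throughout. Differences changed sign as follows, on the log2 scale. For Igf1r it was -0.033 with quantile normalization and -0.0063 with median centring. With the meningeal score as covariate Igfbp6 was at 0.076. With the choroid plexus score Igf2 was at -0.68, Igf1r at -0.028, Igfbp2 at -0.62 and Igfbp7 at -0.063. With both scores Igf1 was at 0.069, Igf2 at -0.25, Igfbp2 at -0.31 and Igfbp6 at 0.27. With TBI 1 and sham 1 left out, chosen after seeing the data, Igf2 was at -0.57, Igf1r at -0.063, Igfbp2 at -0.24 and Igfbp7 at -0.22. Without sham 2, sham 4 and TBI 1, also chosen after seeing the data, the values were 0.095 for Igf1, -0.11 for Igfbp5, 0.30 for Igfbp6 and -0.13 for Igfbp7. The cause was not tested. Leaving out each library in turn gave ranges of -0.16 to 0.15 for Igf1, -0.040 to 1.34 for Igf2, -0.041 to 0.048 for Igf1r, 0.12 to 0.31 for Igf2r, 0.013 to 1.43 for Igfbp2, 0.23 to 0.68 for Igfbp3, -0.47 to -0.26 for Igfbp4, 0.076 to 0.42 for Igfbp5, -0.59 to 0.39 for Igfbp6 and -0.27 to 0.20 for Igfbp7. Igf2r, Igfbp3 and Igfbp4 kept their sign in all alternatives. Deviations of same-numbered libraries correlated between -0.38 and 0.31. They also carry the split in neighbouring tissue, so they cannot show whether library numbers pair the samples. With the replicate block 0 rows and 0 list genes passed. With every number in both groups the block moves no difference, so Igfbp4 stayed at -0.37, but it moved the SE. That of Igfbp3 went from 0.342 to 0.225 (limma's unadjusted p from 0.153 to 0.055) and that of Igfbp5 from 0.265 to 0.181. For Igf2 it rose from 1.15 to 1.40 and for Igfbp2 from 1.07 to 1.30. Adding rows that name a member with other genes was not run, since 0 such rows exist. The depth is unknown, and 5 libraries per group limit the precision.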

Other observations

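Irs1, the docking protein that passes the signal of the IGF and insulin receptors into the cell, was at 14.9 FPKM in TBI 1 and between 1.90 and 2.46 FPKM in the other 9 libraries, a 6.04-fold gap to the next highest. TBI 1 is a library with no common ratio to TBI 2 at low loci. Irs1 was chosen after its values were seen. Its relative Irs2 was at 11.7 FPKM in the same library, the lowest of the 10, where the other TBI libraries had 15.3 to 17.03 FPKM and the sham libraries 15.2 to 18.2 FPKM. Insrr, an orphan relative of the insulin receptor, was at 0.59 FPKM in TBI 1, against 0.78 FPKM in sham 4 and 0.26 FPKM in sham 2. In the other 7 libraries it was at 0.031 to 0.096 FPKM, so Insrr was highest in the 3 libraries with the largest meningeal sums; it too was chosen after its values were seen. The row naming H19 with Mir675, next to Igf2 in the imprinted cluster, was at 0.065 to 0.48 FPKM after TBI and 0.092 to 0.22 FPKM in sham, and Ins2 was listed at 0 in every library.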
